A study of Mus musculus with 6 samples.

Results

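Axon guidance ligands and receptors were followed in J1 mouse embryonic stem cells that had been differentiated with or without a static magnetic field. The genes were chosen by name among the protein-coding rows of the deposited table: semaphorins, plexins, plexin domain containing proteins, neuropilins, Slits, Robos, netrins, Unc5 receptors, ephrins, Eph receptors, Dcc, neogenin, repulsive guidance molecules, draxin, and the Dpysl and Srgap effectors. They number 32 of 2031 genes. In the GENCODE M21 annotation the same name pattern takes 86 protein-coding genes, and the other 54 were not analysed here. J1 is a single embryonic stem cell line of the 129S4/SvJae strain, and in both groups it was aggregated in hanging drops into embryoid bodies, which formed after 3 days, under a protocol meant to give heart muscle cells. The control group (NC, 3 libraries) grew in a conventional incubator. Cells of the other group (MF, 3 libraries) grew in an incubator that applied a static magnetic field, and nothing used here states its strength or when the cells were harvested. The series calls the libraries biological triplicates, and poly-A RNA was sequenced from bulk cells, so that fewer cells of a type and less RNA per cell cannot be told apart.

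Guidance cues are secreted or membrane-bound proteins that attract or repel growing axons, migrating cells and vessel sprouts. Class 3 semaphorins bind neuropilins, which signal through A-type plexins. Slits bind Robo receptors, netrins bind Dcc, neogenin and Unc5 receptors, and ephrins bind Eph receptors on the neighbouring cell. The same families act in the heart and vessels, where semaphorin and plexin D1 signals are known for their part in outflow tract and vessel patterning and Slit and Robo genes for valve and septum formation.

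The table holds selected genes: in the authors' deposited table no adjusted p exceeds 0.0499 and no log2 fold change is smaller in size than 1.001. A difference between the groups is therefore a condition for being in the table. The direction and size of each difference, and how the libraries of a group vary, are what the values below describe. Values are FPKM, counts scaled by gene length and by an effective library size that the authors set. Total counts of the deposited genes per library ran from 847425 to 1985809.

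Cell type markers gave the setting. Of 12 listed heart muscle markers 10 were in the table and all 10 were higher in MF by their means. Their summed levels were 33.2 to 70.9 FPKM over the NC libraries and 120.1 to 648 FPKM over the MF libraries. For Myl7, Myh7 and Actn2, MF replicate 2 lay below the highest NC library. Of 10 fibroblast and mesenchyme markers 8 were present and higher by their means, at 173 to 319.9 FPKM in NC and 279 to 1329 FPKM in MF. Here MF replicate 2 lay below the highest NC library for Col1a1, Col1a2 and Fn1. Of 9 neural crest markers 4 were present and higher, at 3.06 to 8.85 and 27.8 to 94.4 FPKM. Twist1 made up most of these sums, at 67.2, 17.3 and 68.2 FPKM in MF replicates 1 to 3. Of 9 endothelial markers 5 were present, 4 higher and 1 lower, at 12.4 to 42.8 and 21.9 to 41.3 FPKM. Of 14 neuron markers only Isl1 and Dcx were in the table. Their sums were 0.0627 to 1.99 FPKM in NC and 5.86 to 6.52 FPKM in MF. Isl1 made up most of the sum in every library, at 6.14, 4.24 and 6.11 FPKM in MF replicates 1 to 3. Dcx, which was not tested, was at 0.144, 1.62 and 0.403 FPKM there. The sums therefore describe mainly 1 gene and cannot by themselves show neurons. None of 9 neural progenitor or 5 glia markers was in the table. The 2 listed naive pluripotency markers in the table, Dppa3 and Prdm14, were lower in MF, at 38.1 to 93.4 and 3.65 to 18.8 FPKM, and the 1 endoderm marker, Gata6, was higher by its mean but not in MF replicate 2, at 0.981 to 2.93 and 2.19 to 25.9 FPKM. No marker in the table was at 0 in every library. The part of these cell types in the guidance results was not tested.

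**Figure D1:**
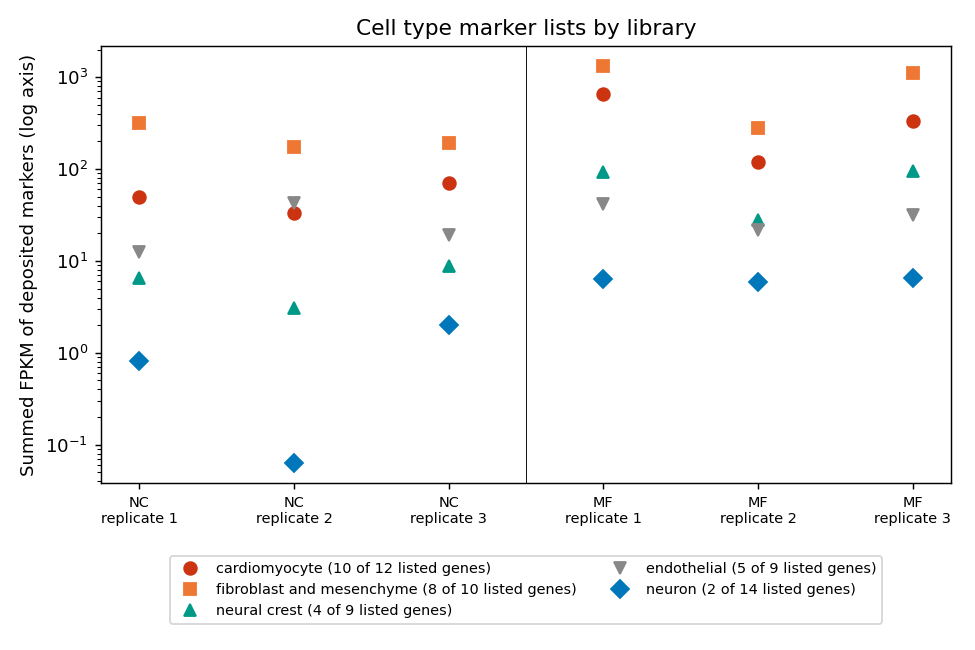
Summed FPKM of the deposited members of 5 cell type marker lists in each library, on a log axis. Heart muscle, mesenchyme, neural crest and endothelial sums are lower in MF replicate 2 than in the other 2 MF libraries. The sum of the 2 neuron markers lies between 5.86 and 6.52 FPKM in all 3. It joins opposite orders: Isl1 is at 6.14, 4.24 and 6.11 FPKM in MF replicates 1 to 3. Dcx is at 0.144, 1.62 and 0.403 FPKM.

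Of the 32 guidance genes 30 were higher in MF and 2, Sema4a and Plxdc1, were lower. Of all 2031 deposited genes 63.2% were higher. All 3 Slits and both neuropilins of the annotation were in the table and higher, as were 5 of 9 plexins, 3 of 4 netrins, 3 of 8 ephrins, 2 of 4 Robos and 2 of 6 genes whose names begin with Unc5, although Robo1 and Unc5b were not higher once median-of-ratios factors set the scale. Of 20 semaphorins 8 were in the table, 7 higher and 1 lower. Epha3 was the 1 Eph receptor of 14, and Dpysl3 the 1 gene of 4 in its family. Dcc, neogenin, draxin and the Rgm, Srgap and netrin-G genes were not analysed here. Of 174 listed ligand and receptor pairs 36 had both partners in the table, and in 35 of these both were higher in MF. Because 30 of the 32 genes were higher and the pairs share genes, this count follows from the directions above and is no separate result.

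Genes averaging 0.5 FPKM or more across the libraries were tested, which took in 29 of the 32. In edgeR (quasi-likelihood, Benjamini-Hochberg adjustment over 1651 genes), 27 of the 29 rose and 2 fell, against 97.5% of all tested genes called in either direction, 62.1% called higher and 35.4% called lower. The total of 29 called is close to the background and is no result about the guidance genes. The share that rose, 93.1%, is above the 62.1% of all tested genes, in a table selected on this same contrast, and that difference was not tested. Adjusted p-values of the 29 lay between 0.0111 and 0.0482, and in the authors' deposited table those of all 32 lay between 3.41e-11 and 0.0468. The median log2 fold change of the 29 was 1.61, against 1.22 over all tested genes, and among the genes that were higher it was 1.69 against 1.62. FPKM values of the groups did not overlap for 27 of the 29, 25 of them higher and 2 lower in MF, against 92.5% of all tested genes, 58.4% higher and 34.2% lower. Counting all 19071 tests that the authors' adjusted p-values imply, 0 of the 29 passed in edgeR, although each of the 29 was under 0.05 before adjustment. By that count 13 passed in DESeq2, and 14 in edgeR once replicate numbers were blocked, against 598 and 504 of all 1651 tested genes. Leaving out MF replicate 3, edgeR called 0 of the 29, with adjusted p-values from 0.0559 to 0.13, and without MF replicate 1 it called 10. Of all 1651 tested genes it called 12 and 447 in these fits. Without NC replicate 1, 2 or 3 it called 17, 16 or 21 of the 29, and without MF replicate 2 it called 28. Over all tested genes these calls were 641, 735, 1012 and 1578, so the counts moved with the whole table. With the scale reset on these selected genes alone, the calls were 8 higher and 2 lower by TMM factors and 4 higher and 1 lower by median-of-ratios factors. Over all tested genes the split went from 1026 higher and 584 lower to 291 and 589 by TMM factors and 158 and 507 by median-of-ratios factors. Nrp1, Plxna2, Plxna4, Unc5c, Slit1, Slit2, Ntn3, Sema6d and Dpysl3 passed in each fit that left out 1 library except the one without MF replicate 3. All had been selected on these same libraries, and the share of all tested genes that passed these fits was not counted. It is therefore no result about these genes.

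**Figure D2:**
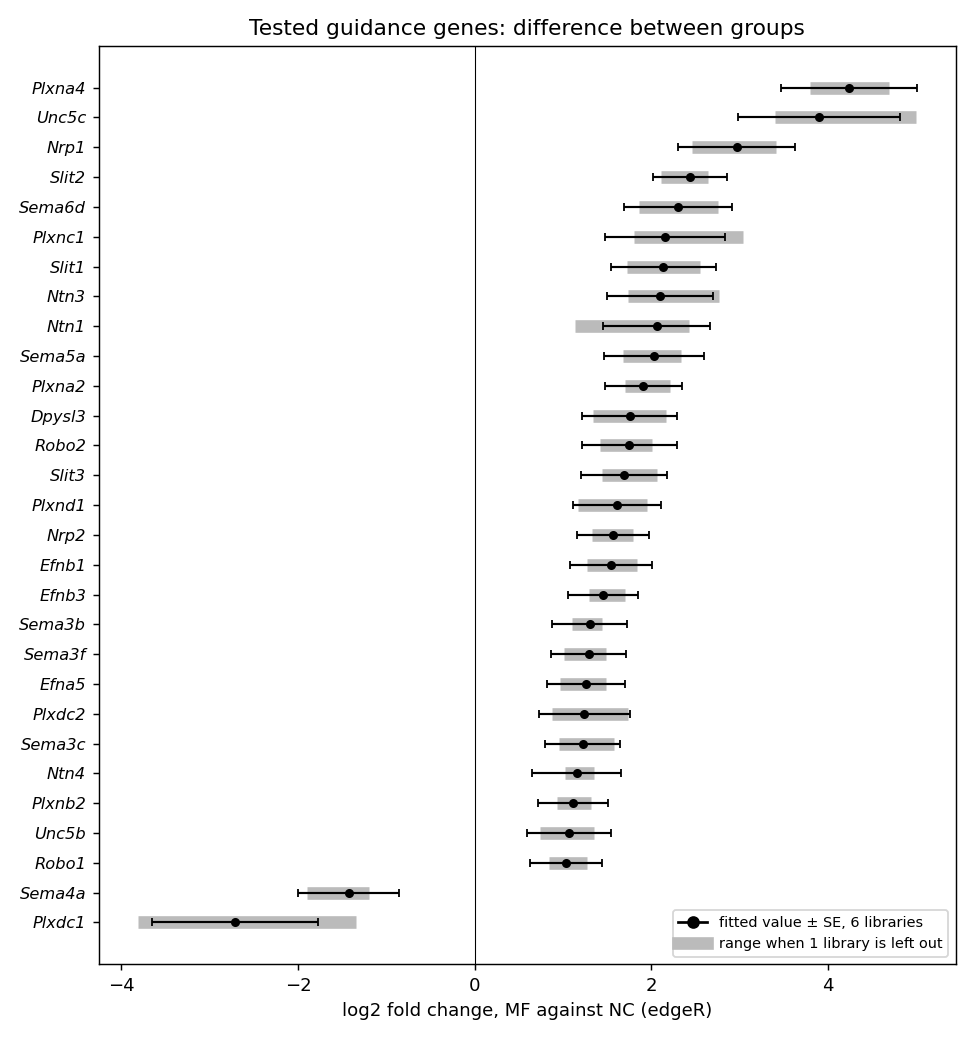
The log2 fold change of MF against NC for the 29 tested guidance genes, with its standard error as bars, and as a grey band the range when 1 library at a time is left out. Each band stays on its side of 0, from Plxdc1 at -2.71 to Plxna4 at 4.24, although with median-of-ratios factors Robo1 and Unc5b turned to -0.13 and -0.01. The genes had been selected on this contrast. The share of all tested genes that were higher, 63.7%, also stayed the same when 1 library was left out.

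The 250 bases before the RefSeq start (the first listed for a gene) are shown for the 4 guidance genes with the largest fold changes among those with at least 2 FPKM in the higher group and an entry in the promoter table: the netrin receptor Unc5c, the semaphorin co-receptor Nrp1, the ligand Slit2 and the membrane semaphorin Sema6d. They are RefSeq sequences of build GRCm38.p6, written 5′ to 3′ on the strand of the gene. RefSeq starts need not match the mm10 gene coordinates given for each gene, which are GENCODE's. The Unc5c and Nrp1 windows lie inside the GENCODE gene, and the Slit2 window runs past its GENCODE start. The Sema6d window ends just before its GENCODE start, so there the starts are the same. Capitals mark matches, on either strand, to 4 motifs: the GC box (GGGCGG), the TATA box (TATAAA), an E-box (CAGCTG) and a GATA motif (AGATAA).
Unc5c, chr3:141465314-141465563, plus strand: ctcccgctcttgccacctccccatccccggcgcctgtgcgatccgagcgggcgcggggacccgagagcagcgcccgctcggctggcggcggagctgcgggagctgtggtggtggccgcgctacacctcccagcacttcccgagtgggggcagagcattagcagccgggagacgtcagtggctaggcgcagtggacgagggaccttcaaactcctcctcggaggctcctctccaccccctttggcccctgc
Nrp1, chr8:128358823-128359072, plus strand: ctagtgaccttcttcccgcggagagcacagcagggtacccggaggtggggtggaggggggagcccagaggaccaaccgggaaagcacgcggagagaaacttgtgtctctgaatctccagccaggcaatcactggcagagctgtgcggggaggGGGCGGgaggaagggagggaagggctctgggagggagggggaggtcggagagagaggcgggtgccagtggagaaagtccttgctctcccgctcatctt
Slit2, chr5:47982905-47983154, plus strand: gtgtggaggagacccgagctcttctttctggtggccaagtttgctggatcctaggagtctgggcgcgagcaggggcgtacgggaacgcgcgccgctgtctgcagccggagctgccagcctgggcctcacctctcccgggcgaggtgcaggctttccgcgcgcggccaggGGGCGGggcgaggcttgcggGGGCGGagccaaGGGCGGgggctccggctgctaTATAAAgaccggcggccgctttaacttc
Sema6d, chr2:124089719-124089968, plus strand: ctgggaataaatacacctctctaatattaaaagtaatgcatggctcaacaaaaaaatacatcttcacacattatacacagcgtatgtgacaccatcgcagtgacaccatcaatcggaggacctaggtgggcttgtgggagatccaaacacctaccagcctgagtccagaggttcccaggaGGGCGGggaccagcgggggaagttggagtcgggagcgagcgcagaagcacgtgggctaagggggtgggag
The Slit2 window held 3 GC boxes and 1 TATA box, the Nrp1 and Sema6d windows 1 GC box each, and the Unc5c window held none of the 4 motifs. Of the 32 genes 23 had an entry, and 17 of these (73.9%) held GGGCGG within the window. That was so for 55.9% of 1127 tested protein-coding genes with an entry and for 32.9% of all 27025 promoters. The median GC content of the windows was 66.8% in the 23, 59.6% in the tested protein-coding genes and 52% in all promoters. The TATA box, the E-box and the GATA motif were each found in 1 of the 23 windows (4.35%). In the tested protein-coding genes they were found in 9.23%, 14.3% and 5.06%, and in all promoters in 12.97%, 12.8% and 10.3%. GC box matches go along with GC content, and a match is a run of letters and not a binding site.

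**Figure D3:**
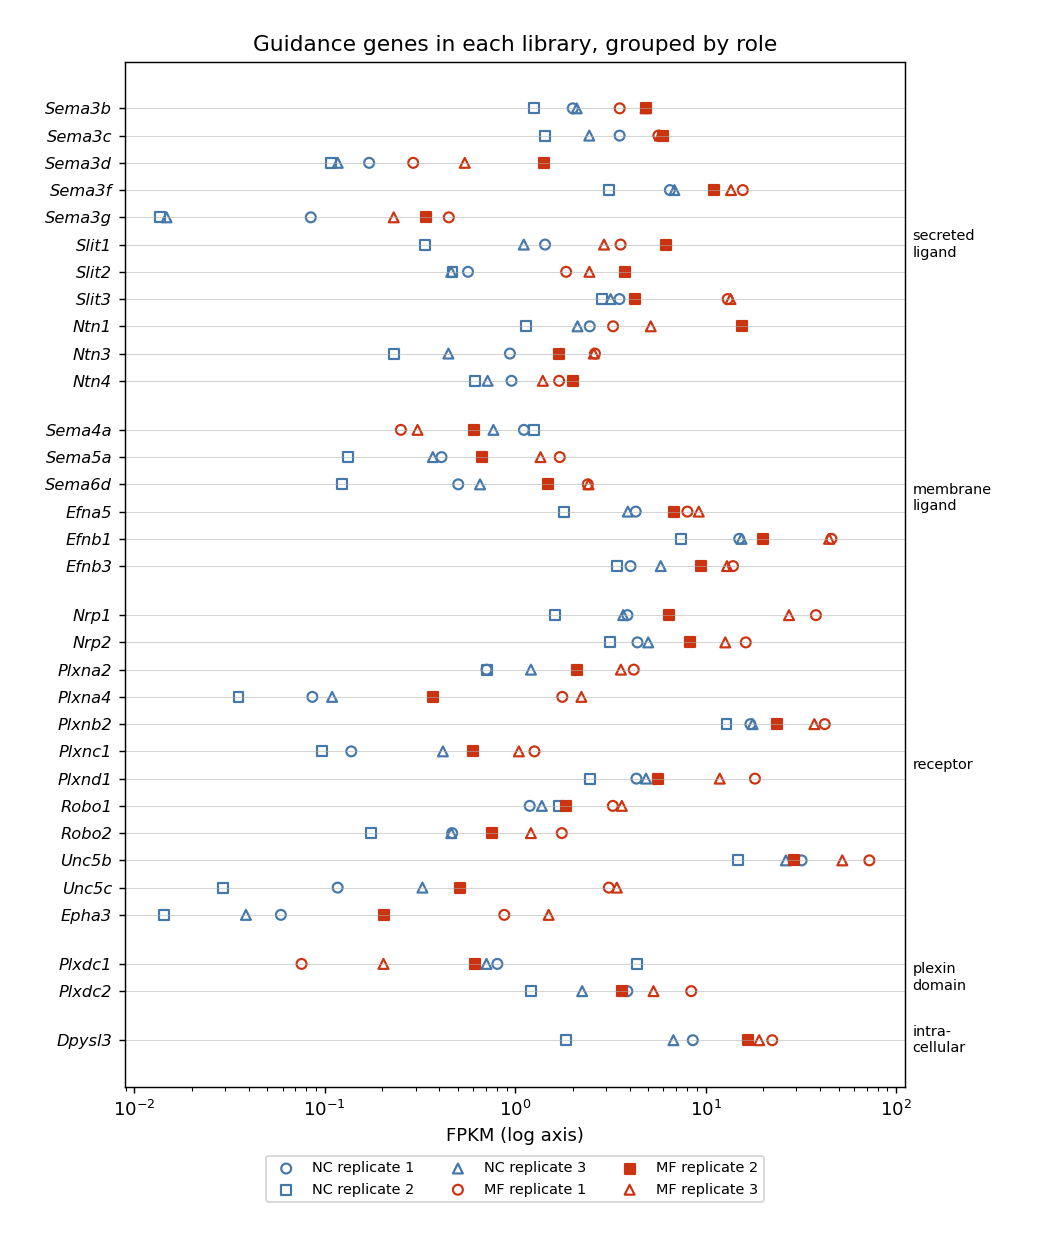
FPKM of all 32 guidance genes in each of the 6 libraries on a log axis, grouped by role, with NC in blue, MF in red and MF replicate 2 filled. The MF points lie to the right of the NC points without overlap for 28 genes, overlap with them for Plxdc2 and Unc5b, and lie to the left for Sema4a and Plxdc1. Of all tested genes 92.5% did not overlap, 58.4% higher and 34.2% lower in MF.

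All 3 Slits rose. Slits are large secreted proteins that repel axons and migrating cells. Slit2 (mm10 chromosome 5, 47983138 to 48307733) stood at 0.565, 0.469 and 0.461 FPKM in NC replicates 1 to 3 and 1.85, 3.78 and 2.45 FPKM in MF replicates 1 to 3. It rose 5.41-fold (log2 fold change 2.43, SE 0.42, edgeR adjusted p = 0.0111), and the lowest MF library was 3.28 times the highest NC library. Slit1 (mm10 chromosome 19, 41600257 to 41743665), a cue best known from the nervous system, stood at 1.43, 0.335 and 1.11 FPKM in NC replicates 1 to 3 and 3.58, 6.17 and 2.93 FPKM in MF replicates 1 to 3. It rose 4.399-fold (log2 fold change 2.14, SE 0.59, edgeR adjusted p = 0.0216). Without the replicate 2 libraries of both groups the rise of Slit1 was 2.55-fold. For both genes MF replicate 2 was the highest library of all 6. Slit3 (mm10 chromosome 11, 35121224 to 35708507) behaved the other way among the MF libraries, with 3.53, 2.84 and 3.17 FPKM in NC replicates 1 to 3 and 13.1, 4.28 and 13.5 FPKM in MF replicates 1 to 3. It rose 3.23-fold (edgeR adjusted p = 0.0228), and MF replicate 2 lay close above the highest NC library while the other 2 MF libraries were about equal.

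The 2 Robo receptors in the table, which bind Slits, were higher in MF, though Robo1 turned to a log2 fold change of -0.13 with median-of-ratios factors. Robo1 (mm10 chromosome 16, 72308306 to 73046095) stood at 1.19, 1.695 and 1.38 FPKM in NC replicates 1 to 3 and 3.26, 1.84 and 3.63 FPKM in MF replicates 1 to 3. It rose 2.05-fold (edgeR adjusted p = 0.0349, and 0.051 in limma on log2(FPKM + 0.1)), and MF replicate 2 lay only 1.09 times above NC replicate 2. Robo2 (mm10 chromosome 16, 73891839 to 74411825) rose 3.37-fold, with means of 0.368 ± 0.167 FPKM in NC and 1.24 ± 0.502 FPKM in MF (SD, n = 3), and its MF replicate 2 stood at 0.754 FPKM. The genes lie 846 kb apart on chromosome 16 with 1 other deposited gene between them. Robo2 was lowest in NC replicate 2, at 0.175 FPKM, the library in which Robo1 was highest among the controls.

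Netrins rose, and so did their Unc5 receptors, though Unc5b not with median-of-ratios factors (log2 fold change -0.011). Ntn1 (mm10 chromosome 11, 68209364 to 68400823), netrin 1, the secreted cue that attracts axons through Dcc and repels them through Unc5 receptors, stood at 2.46, 1.14 and 2.12 FPKM in NC replicates 1 to 3 and 3.26, 15.5 and 5.15 FPKM in MF replicates 1 to 3. The mean of the MF group rested on replicate 2, which was 4.73 times MF replicate 1. It rose 4.17-fold (log2 fold change 2.06, SE 0.61, edgeR adjusted p = 0.0236). Without MF replicate 2 the rise was 2.20-fold (edgeR adjusted p = 0.0395), and without the replicate 2 libraries of both groups 1.83-fold. It missed the threshold without NC replicate 2 (edgeR adjusted p = 0.0504). Ntn3 (mm10 chromosome 17, 24203848 to 24209531) stood at 0.938, 0.231 and 0.446 FPKM in NC replicates 1 to 3 and 2.62, 1.701 and 2.59 FPKM in MF replicates 1 to 3. It rose 4.27-fold (edgeR adjusted p = 0.0228), or 6.79-fold without NC replicate 1, the highest control. Ntn4, a netrin of basement membranes, rose 2.23-fold (edgeR adjusted p = 0.0466), with means of 0.762 ± 0.176 FPKM in NC and 1.700 ± 0.304 FPKM in MF (SD, n = 3), and it passed in none of the 6 fits that left out 1 library (adjusted p from 0.0619 to 0.136).

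The Unc5 receptors differed in level. Unc5b (mm10 chromosome 10, 60762593 to 60831581), a netrin receptor also known from vessel endothelium, had the highest FPKM of all 32 genes, at 31.9, 14.8 and 26.4 FPKM in NC replicates 1 to 3 and 72.4, 29.03 and 52.2 FPKM in MF replicates 1 to 3. The groups overlapped, since MF replicate 2 lay below NC replicate 1. It rose 2.101-fold (edgeR adjusted p = 0.0482), but not in limma on log2(FPKM + 1) (adjusted p = 0.0515), and its log2 fold change was -0.01 with median-of-ratios factors. Unc5c (mm10 chromosome 3, 141465216 to 141834924), a receptor for repulsion from netrin 1, was close to absent in NC, with 0.117, 0.0292 and 0.326 FPKM in NC replicates 1 to 3 and 3.101, 0.513 and 3.42 FPKM in MF replicates 1 to 3. It rose 14.9-fold (log2 fold change 3.90, SE 0.92, edgeR adjusted p = 0.0153), or 31.98-fold without NC replicate 3, the highest control. MF replicates 1 and 3 were alike, and MF replicate 2 lay 1.58 times above NC replicate 3. Next to each other, the netrin levels peaked in MF replicate 2 for Ntn1 and Ntn4, while Ntn3 and both receptors were lowest among the MF libraries there. Of all tested genes that were higher in MF, 82.8% were also lowest in that MF library.

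Both neuropilins rose. Nrp1 (mm10 chromosome 8, 128358604 to 128503363), a co-receptor of class 3 semaphorins and of vascular endothelial growth factor, stood at 3.88, 1.61 and 3.69 FPKM in NC replicates 1 to 3 and 37.95, 6.41 and 27.4 FPKM in MF replicates 1 to 3. It rose 7.81-fold (log2 fold change 2.97, SE 0.66, edgeR adjusted p = 0.0142). MF replicate 1 was 5.92 times MF replicate 2, which itself was 1.65 times the highest NC library. Nrp2 (mm10 chromosome 1, 62703285 to 62818695), the other neuropilin, stood at 4.39, 3.16 and 4.99 FPKM in NC replicates 1 to 3 and 16.2, 8.303 and 12.7 FPKM in MF replicates 1 to 3 and rose 2.97-fold (edgeR adjusted p = 0.0191). The order of the 3 MF libraries was the same for both neuropilins, and in both NC replicate 2 was the lowest library.

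All 5 plexins in the table rose. Plexins are the signalling receptors of semaphorins and act on the cytoskeleton through small GTPases. Plxna4 (mm10 chromosome 6, 32144268 to 32588192), an A-type plexin of sensory and sympathetic axons, had the largest rise among the 29 tested genes, at 18.9-fold (log2 fold change 4.24, SE 0.77, edgeR adjusted p = 0.0111). It stood at 0.0861, 0.0352 and 0.109 FPKM in NC replicates 1 to 3 and 1.77, 0.371 and 2.23 FPKM in MF replicates 1 to 3. The NC values rest on 19, 8 and 23 counts. Plxna2 (mm10 chromosome 1, 194618218 to 194816869) stood at 0.707, 0.712 and 1.21 FPKM in NC replicates 1 to 3 and 4.19, 2.11 and 3.59 FPKM in MF replicates 1 to 3 and rose 3.76-fold (edgeR adjusted p = 0.0151). Plxnd1 (mm10 chromosome 6, 115954811 to 115995005), a plexin of endothelium that receives Sema3e, stood at 4.33, 2.46 and 4.86 FPKM in NC replicates 1 to 3 and 18.2, 5.601 and 11.9 FPKM in MF replicates 1 to 3 and rose 3.06-fold (edgeR adjusted p = 0.0247). MF replicate 2 was 1.15 times the highest NC library for Plxnd1. Plxnb2 (mm10 chromosome 15, 89155549 to 89180788), a receptor for class 4 semaphorins, was the plexin with the highest FPKM, at 17.2, 12.9 and 17.6 FPKM in NC replicates 1 to 3 and 42.2, 23.6 and 37.2 FPKM in MF replicates 1 to 3. It rose 2.16-fold (edgeR adjusted p = 0.0301). Plxnc1, the receptor of Sema7a, rose 4.45-fold, with means of 0.217 ± 0.174 FPKM in NC and 0.968 ± 0.338 FPKM in MF (SD, n = 3), or 8.22-fold without NC replicate 3. All 5 plexins were lowest among the MF libraries in replicate 2.

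The 5 class 3 semaphorins in the table, which are secreted, were higher in MF, and the 3 of them that were tested rose by similar amounts. Sema3f (mm10 chromosome 9, 107681500 to 107710475), a ligand of neuropilin 2, stood at 6.49, 3.09 and 6.86 FPKM in NC replicates 1 to 3 and 15.7, 11.02 and 13.6 FPKM in MF replicates 1 to 3 and rose 2.45-fold (edgeR adjusted p = 0.0265). Sema3c (mm10 chromosome 5, 17574281 to 17730268), which is needed for the outflow tract of the mouse heart, stood at 3.53, 1.43 and 2.45 FPKM in NC replicates 1 to 3 and 5.65, 5.94 and 5.76 FPKM in MF replicates 1 to 3 and rose 2.34-fold (edgeR adjusted p = 0.0287). Its MF libraries were nearly equal, and most of its spread lay in NC. Sema3b (mm10 chromosome 9, 107597674 to 107609229) stood at 2.01, 1.26 and 2.103 FPKM in NC replicates 1 to 3 and 3.54, 4.87 and 4.84 FPKM in MF replicates 1 to 3 and rose 2.47-fold (edgeR adjusted p = 0.0265). Sema3b and Sema3f are neighbours on chromosome 9, 72.3 kb apart on the same strand with no other deposited gene between them, and both were lowest in NC replicate 2. Among the MF libraries Sema3b was lowest in replicate 1, the library in which Sema3f was highest. Sema3d and Sema3g lay below the filter. Sema3d stood at 0.171, 0.108 and 0.117 FPKM in NC replicates 1 to 3 and 0.291, 1.41 and 0.543 FPKM in MF replicates 1 to 3, and Sema3g at 0.0844, 0.0137 and 0.0148 FPKM in NC replicates 1 to 3 and 0.448, 0.341 and 0.2301 FPKM in MF replicates 1 to 3, on 6, 1 and 1 counts in NC. In a fit without the filter their edgeR adjusted p-values were 0.0191 and 0.0205.

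The membrane-bound semaphorins went both ways. Sema6d (mm10 chromosome 2, 124089969 to 124667770), which acts through A-type plexins in chick heart morphogenesis, stood at 0.502, 0.123 and 0.653 FPKM in NC replicates 1 to 3 and 2.41, 1.49 and 2.43 FPKM in MF replicates 1 to 3 and rose 4.94-fold (edgeR adjusted p = 0.01997). Sema5a, with thrombospondin repeats in its extracellular part, rose 4.098-fold (edgeR adjusted p = 0.0218), with means of 0.304 ± 0.1497 FPKM in NC and 1.25 ± 0.531 FPKM in MF (SD, n = 3). Sema4a (mm10 chromosome 3, 88435959 to 88461182), a ligand known from immune cells, fell 2.69-fold (log2 fold change -1.43, SE 0.57, edgeR adjusted p = 0.0375), with 1.11, 1.25 and 0.768 FPKM in NC replicates 1 to 3 and 0.251, 0.606 and 0.307 FPKM in MF replicates 1 to 3. The lowest NC library was 1.27 times the highest MF library, MF replicate 2. Among the listed pairs with both partners in the table, Sema4a and Plxnb2 formed the 1 pair in which ligand and receptor went in opposite directions.

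Ephrins, ligands that stay on the cell surface, rose in all 3 cases. Efnb1 (mm10 chromosome X, 99136130 to 99148991), a transmembrane ephrin of neural crest and mesenchyme, stood at 15.01, 7.43 and 15.4 FPKM in NC replicates 1 to 3 and 45.8, 20.1 and 44.5 FPKM in MF replicates 1 to 3. It rose 2.92-fold (log2 fold change 1.54, SE 0.47, edgeR adjusted p = 0.0242), and its MF replicate 2 was 1.30 times the highest NC library. Efnb3 (mm10 chromosome 11, 69554092 to 69560205), a midline barrier for axons in the spinal cord, stood at 4.03, 3.41 and 5.81 FPKM in NC replicates 1 to 3 and 13.9, 9.41 and 12.95 FPKM in MF replicates 1 to 3 and rose 2.74-fold (edgeR adjusted p = 0.0213). Efna5 (mm10 chromosome 17, 62604184 to 62881317), an ephrin held by a lipid anchor, stood at 4.29, 1.801 and 3.904 FPKM in NC replicates 1 to 3 and 8.02, 6.81 and 9.204 FPKM in MF replicates 1 to 3 and rose 2.403-fold (edgeR adjusted p = 0.0291). Epha3 (mm10 chromosome 16, 63543534 to 63864175), a receptor of Efna5 with a known part in the atrioventricular cushions of the mouse heart, lay below the filter, at 0.0588, 0.0143 and 0.0385 FPKM in NC replicates 1 to 3 and 0.876, 0.205 and 1.499 FPKM in MF replicates 1 to 3. Its NC libraries held 8, 2 and 5 counts, and the edgeR adjusted p in the fit without the filter was 0.0101.

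The plexin domain containing proteins, which share an extracellular domain with plexins and are known from tumour endothelium, differed from each other. Plxdc1 (mm10 chromosome 11, 97923238 to 97986444) stood at 0.806, 4.36 and 0.706 FPKM in NC replicates 1 to 3 and 0.0755, 0.615 and 0.203 FPKM in MF replicates 1 to 3. It fell 6.57-fold (log2 fold change -2.71, SE 0.94, edgeR adjusted p = 0.02904), but NC replicate 2 set the NC mean. Without that library the fall was 2.54-fold with an adjusted p of 0.144, and without MF replicate 2 it was 14.1-fold. Plxdc2 (mm10 chromosome 2, 16356304 to 16755839) stood at 3.88, 1.22 and 2.25 FPKM in NC replicates 1 to 3 and 8.400, 3.64 and 5.32 FPKM in MF replicates 1 to 3 and rose 2.37-fold (edgeR adjusted p = 0.0404), with MF replicate 2 below NC replicate 1. Dpysl3, a microtubule-associated protein of the collapsin response family that acts inside the growth cone downstream of semaphorins, stood at 8.56, 1.85 and 6.77 FPKM in NC replicates 1 to 3 and 22.4, 16.6 and 19.1 FPKM in MF replicates 1 to 3. It rose 3.38-fold (edgeR adjusted p = 0.0243), and NC replicate 2 was the lowest library by far.

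Secreted ligands and receptors differed in how the MF libraries ordered. Among the genes that were higher in MF, replicate 2 lay above the mean of MF replicates 1 and 3 for 8 of 11 secreted ligands, of which Sema3c and Sema3g exceeded it by only 0.058 and 0.0076 on the log2 scale. The same held for 0 of 12 receptors and 0 of 5 membrane-bound ligands, and for 10.8% of all tested genes that were higher. These counts include Sema3d, Sema3g and Epha3, which lay below the filter, while the shares of all genes cover tested genes only. Among the 27 tested guidance genes that were higher, it held for 6 (22.2%). Replicate 2 was the highest MF library for Sema3b, Sema3c, Sema3d, Slit1, Slit2, Ntn1 and Ntn4. It was the lowest MF library for all 12 receptors, and for 82.8% of all tested genes that were higher, or 52.8% of all tested genes. The median ratio to the NC mean, on a log2 scale after adding 0.01 FPKM, was 1.51, 1.64 and 1.60 for the secreted ligands in MF replicates 1 to 3, and 2.24, 1.04 and 1.86 for the receptors. Sema3f, Slit3 and Ntn3 were the 3 secreted ligands with replicate 2 under the mean of the others, with differences of -0.41, -1.63 and -0.61 on the log2 scale. Ntn1 and Unc5c marked the ends among the tested guidance genes that were higher in MF, at 1.87 and -2.64. These are values of 1 library, the role classes were drawn with the data known, and no test was made. Most listed markers that were higher in MF were lowest in MF replicate 2 among the MF libraries: 8 of 10 for heart muscle, all 8 for mesenchyme, all 4 for neural crest, the 4 endothelial markers, Isl1 and Gata6. Myl2, Tnni3 and Dcx were instead highest there, with Dcx at 0.144, 1.62 and 0.403 FPKM in MF replicates 1 to 3. Col3a1, a mesenchyme marker, stood at 222, 25.4 and 199 FPKM. The part of these cell types in the pattern was not tested.

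**Figure D4:**
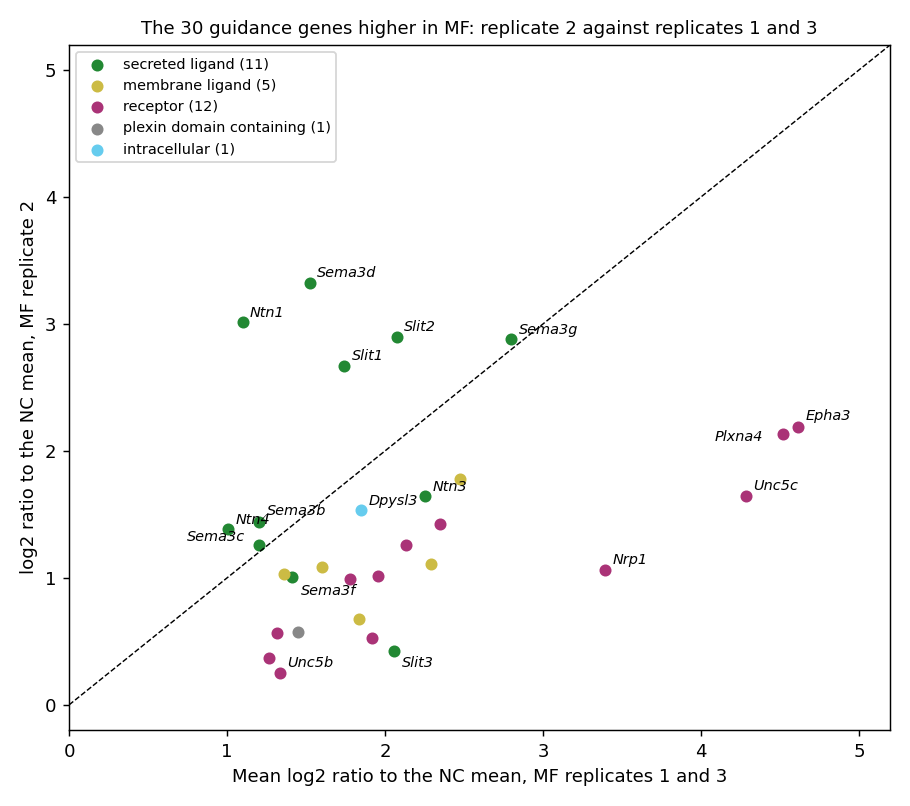
For the 30 guidance genes higher in MF, the log2 ratio to the NC mean (0.01 FPKM added) in MF replicate 2 against the mean of that ratio in MF replicates 1 and 3, with the dashed line marking equal values. Of 11 secreted ligands 8 lie above the line, and all 12 receptors lie below it, with Unc5c, Plxna4 and Epha3 farthest to the right.

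The control libraries ordered as well. NC replicate 2 was the lowest control for 27 of the 30 genes that were higher in MF (24 of the 27 tested), and for 72.1% of all tested genes that were higher. Plxna2, Robo1 and Slit2 were the exceptions. The widest gaps below the mean of NC replicates 1 and 3 were those of Unc5c, Sema6d and Dpysl3, at -2.56, -2.14 and -2.04 on the log2 scale. Plxdc1 stood 2.51 above that mean in the same library. Dppa3 and Prdm14, the pluripotency markers, were also highest in NC replicate 2, at 73.6 and 19.9 FPKM against 33.9 and 4.19 in NC replicate 1. Their part in the guidance values was not tested.

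Other genes of the pathway, a list of 193 co-receptors, further cues and intracellular effectors, gave 46 genes in the table, of which 44 were higher in MF and 2, Rac2 and Arhgap4, lower. All 37 that passed the filter rose, in a table where 62.1% of all tested genes were called higher and 97.5% in either direction. Their median log2 fold change was 1.65, against 1.22 over all tested genes and 1.62 over the tested genes that were higher. Without MF replicate 3 the count was 0, and without MF replicate 1 it was 14, where 12 and 447 of all 1651 tested genes were called. Alcam, an adhesion molecule of axon bundles, rose 14.4-fold, with means of 0.367 ± 0.2797 FPKM in NC and 5.31 ± 1.13 FPKM in MF (SD, n = 3). Cxcl12, a chemokine that guides migrating neurons and germ cells, rose 7.07-fold, and Kdr, a receptor of vascular endothelial growth factor that pairs with neuropilin 1, rose 5.83-fold. Among cell surface proteoglycans and matrix genes, Gpc6 rose 5.92-fold, Vcan 4.35-fold and Tnc 4.17-fold, the last with overlapping groups. Gas1, a co-receptor of hedgehog ligands, rose 5.61-fold, with means of 10.6 ± 3.94 FPKM in NC and 59.7 ± 21.8 FPKM in MF (SD, n = 3). Wnt5a, a cue that repels axons, rose 4.52-fold, and Ror1, a receptor for it, 4.42-fold. Flrt2, a ligand of Unc5 receptors, rose 4.495-fold, Itga8, an integrin subunit, 5.65-fold, and Vldlr, a reelin receptor, 5.37-fold. In 31 of the 37 (83.8%) the lowest MF value was that of replicate 2, close to the 82.8% of all tested genes that were higher.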

How the data were processed

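Poly-A RNA of 6 libraries, 3 NC and 3 MF, was analysed from the deposited files. The submitters' processing notes name HISAT2 2.0.5, featureCounts and build mm10. Strand use in counting and the tool behind the authors' comparison are not stated there. Per the file headers, the authors deposited a raw count, an FPKM value and a normalized signal per gene, and, for MF against NC, a log2 fold change with a raw and an adjusted p-value. Within a library, 1 factor turned every deposited count into the normalized signal. The library size implied by the deposited FPKM was that same factor times 1 constant, so FPKM carries the authors' scaling factors and each library's own read total cannot be recovered. These effective sizes (14929232 to 19176383) were used as library sizes.

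The 48 rows with no gene name, at most 0.641% of the deposited counts of a library, stayed out, and 1651 named genes averaging 0.5 FPKM or more were tested with edgeR 4.0.16 in R 4.3.3 (quasi-likelihood, two-sided), group as the only term, Benjamini-Hochberg adjustment at 0.05 over those genes. Because the genes had been selected on the same libraries, this does not control errors over the genome. Folds are those of edgeR, and SE is the log2 fold change over the root of the F statistic. Members and lists were chosen with earlier results of these data known. The genes named with values are the members and, of the 193 pathway genes, the 12 largest changes past the threshold with at least 2 FPKM in the higher group. Values per library are for members with at least 2 FPKM in the higher group; those of Plxna4, Sema4a, Plxdc1, Sema3d, Sema3g and Epha3 were added after their values were seen. Coordinates and lengths of all 32 members matched GENCODE M21, and exons of 6 overlapped another gene, by at most 2.72% of their bases. The authors' number of tests, 19071, is the value that made most authors' ranks whole within 0.02 (69.9% of genes with p of at least 1e-04).

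Same-numbered libraries deviated together from their group means across genes (correlations 0.38, 0.55 and 0.37), so the numbers were taken as pairs for the replicate block. No label states a pairing, and NC replicate 3 correlated more with MF replicate 1 (0.56). No 2 libraries of a group agreed within sampling noise (chi-square over its degrees of freedom was at least 23.5). Alternatives were TMM, median-of-ratios factors, other filters, DESeq2 1.42.0, limma 3.58.1, the replicate block, each library left out and the adjustment over 19071 tests. The pipeline was tested on simulated data. Protein sequences were not used here.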

Additional observations from a re-analysis of the deposited data

How the results depend on the processing

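Direction held for all 29 tested guidance genes in every fit run, except with median-of-ratios factors, where Robo1 (-0.13) and Unc5b (-0.011) reversed. TMM and median-of-ratios factors set on the selected genes moved the median log2 fold change of all tested genes from 1.22 to 0.52 and 0.16, and that of the guidance genes from 1.61 to 0.90 and 0.50. Calls over all genes, guidance genes and pathway genes were 880, 10 and 12 with TMM, 665, 5 and 7 with median-of-ratios factors, and 0, 0 and 0 when adjusted over 19071 tests, with 1613, 29 and 37 at an unadjusted p under 0.05. That adjustment takes every gene outside the table to rank below those tested. Over 19071 tests the replicate block gave 504, 14 and 22, and DESeq2 598, 13 and 20, both chosen after seeing the data, as was leaving out both replicate 2 libraries, which gave 1609, 28 and 34. The filter at 2 FPKM gave 980 and 18, on fewer tested genes. Without 1 library at a time the counts ran from 12 to 1578, from 0 to 28 and from 0 to 33, lowest without MF replicate 3. With the adjustment over tested genes, the replicate block called 1620, 29 and 37 and changed no call of a guidance gene. Counts are lowest in NC for Sema3g, Epha3, Plxna4, Sema3d and Plxnc1 (8, 15, 50, 53 and 83 over the 3 libraries) and in MF for Plxdc1 (73).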
